A study of Mus musculus with 6 samples.

Results

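The transforming growth factor-β (TGF-β) and bone morphogenetic protein (BMP) pathway genes were followed in hair bulge (HB) keratinocytes with and without integrin α3. The set was a fixed list of 39 gene symbols, each found once in the count table of 22295 genes: 9 ligands, 4 latent TGF-β binding proteins, 9 receptors, 5 SMADs, 7 antagonists and 5 targets. All 39 had a count in every library and were tested, among 21681 genes with a count in at least 1 library. The list names genes by pathway and uses no threshold on a measured value.

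RNA sequencing was performed on GFP-positive keratinocytes sorted from the epidermis of 3 K19 Itga3 WT and 3 K19 Itga3 KO mice on the FVB background. WT mice were K19(Cre-ERT); mTmG, and KO mice were K19(Cre-ERT); mTmG; Itga3 fl/fl. In both, tamoxifen turns on a Cre driven by the K19 promoter in HB cells, and these cells and their progeny then carry a green instead of a red reporter. In KO mice Cre also excises the floxed segment of Itga3, which encodes the α3 subunit of the laminin receptor α3β1. The sorted cells were therefore a labelled lineage rather than the bulge alone, and no library came from mice without Cre. All 6 mice received tamoxifen at 10 mg/ml over 4 days at 6 weeks of age per the labels (the study's methods give another age and concentration). They then received 1 dose of 30 μg DMBA, a mutagen, at 7 weeks. TPA, a tumor promoter, was given at 12.34 μg per application over the following weeks, in 4 doses per the study's methods for short-term treatment. The comparison asks which transcripts depend on α3β1 at the stage when tumors are initiated.

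TGF-β, activin and BMP ligands bind pairs of type I and type II receptor kinases. TGF-β and activin receptors phosphorylate SMAD2 and SMAD3, BMP receptors phosphorylate SMAD1 and SMAD5, and both groups of SMADs enter the nucleus with SMAD4. TGF-β is secreted in a latent form tethered to the matrix by latent TGF-β binding proteins, and integrins can release it. In the hair follicle, BMP signaling is known to hold bulge stem cells in quiescence and TGF-β2 to oppose it when a new hair cycle starts.

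Depth ranged from 20578309 to 23670507 counts per library, so 3 counts, taken as the detection floor, amounted to 0.128 to 0.145 counts per 1000000 (CPM). The columns carry the genotype and other numbers that match no sample title. The libraries are called a, b and c within each genotype in table order, the order in which their values are given. Itga3 was lower in every KO library than in any WT library (log2 fold change −1.20, adjusted p = 0.00283, edgeR), as the labels state. The 10 bulge keratinocyte markers summed to 39370 to 52160 CPM in WT and 40090 to 46580 CPM in KO libraries, mostly from Krt5, Krt15 and Krt14. Of the 10 genes, only Cd34 passed the test, with fewer counts in KO libraries (log2 fold change −0.72). Estimates were also below 0 for Postn (−0.83), Lgr5 (−0.47), Krt15, Lhx2, Krt5 and Nfatc1, and above 0 for Krt14, Sox9 and Tcf3. Other cell types were followed by marker lists of their own. The 8 fibroblast genes summed to 179 to 264 CPM in WT and 77.3 to 138 CPM in KO libraries, and none of the 8 passed the test. Col1a1, Col1a2 and Thy1 made up most of these sums. Pdgfra stood at only 0.688 to 1.33 CPM in WT and 0.339 to 0.563 CPM in KO libraries, so the sums need not measure fibroblasts. Estimates were below 0 for Col1a1, Col1a2, Thy1 and Pdgfra and above 0 for Dcn (0.573 to 1.69 CPM in WT, 1.55 to 5.44 CPM in KO libraries), Vim, Col3a1 and Lum. Lum was at or under the floor in every library, and Col3a1 had 0 counts in the WT libraries and 3, 0 and 29 in the KO libraries. The 8 suprabasal genes summed to 1968 to 2635 CPM in WT and 2889 to 3077 CPM in KO libraries (1 gene, Sbsn, passed the test). The 16 inner root sheath and hair shaft genes found summed to 170 to 203 CPM in WT and 199.6 to 240.2 CPM in KO libraries (3 of 16, Krt25, Krt28 and Krt35, passed). The 7 proliferation genes summed to 373 CPM in WT a, 806 and 979 CPM in WT b and c, and 596 to 862 CPM in KO libraries. Sums of the 8 dermal papilla genes (57.6 to 123 CPM in WT, 83.2 to 115 CPM in KO libraries) overlapped between genotypes. Wif1 alone made up most of them (54.7 to 121 CPM in WT, 79.2 to 113 CPM in KO libraries), and 5 of the 8 were at or under the floor in every library. The sums of immune, endothelial and melanocyte genes also overlapped and stayed between 2.52 and 15.03 CPM. The part of these lists in the results below was not tested.

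None of the 39 members had an adjusted p below 0.05 in the KO against WT comparison (edgeR quasi-likelihood test, two-sided, Benjamini-Hochberg over 21681 genes), where 0.673% of all tested genes did. The members nearest to that threshold were the ligands Bmp6 (adjusted p = 0.0708) and Inhbb (adjusted p = 0.0925), with more counts in KO libraries, and the matrix protein gene Ltbp2 (adjusted p = 0.0843), with fewer. At an unadjusted p below 0.05 there were 9 of 39 members, 5 higher and 4 lower in KO libraries (5.58% and 5.97% of all tested genes), against 11.5% of all tested genes and 17% of the 12781 genes with a mean above 1 CPM. In 15 of 39 members the genotypes did not overlap, against 16.3% of all tested genes. Every KO library lay above every WT library in 11, and the reverse held in 4 (8.03% and 8.23% of all tested genes). Of the 37 members with a mean above 1 CPM, 13 (35.1%) did not overlap, 9 higher and 4 lower, against 22.2% of all genes above 1 CPM. Of the same 37, 9 (24.3%) had an unadjusted p below 0.05. The members were chosen with earlier results of these data known, so these shares are a description and not a test. In bulk libraries of sorted cells, fewer cells of a type and less RNA per cell cannot be told apart.

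Most members had similar counts in both genotypes. The 95% interval of the log2 fold change stayed within a 1.5-fold difference for 28 of 39 members and within a 2-fold difference for 34. The 5 members whose interval reached beyond 2-fold were Bmp6, Ltbp2, Bmp4, Inhba and Acvr2b. The median log2 fold change of the members was 0.11, beside 8.8e-05 over all tested genes. Of the 39 estimates, 27 (69.2%) lay above 0, beside 50% over all tested genes. By branch, 11 of 13 BMP ligands, receptors, SMADs and targets had an estimate above 0 (median 0.15). So had 7 of 13 TGF-β genes (median 0.09) and 3 of 5 activin genes (median 0.00). The BMP count includes Smad5 and Id3, whose estimates near 0 changed sign between fits. The TGF-β genes include the 4 latent complex genes, 3 of them below 0, which have no BMP counterpart in the list. The branches are therefore not like for like.

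**Figure D1:**
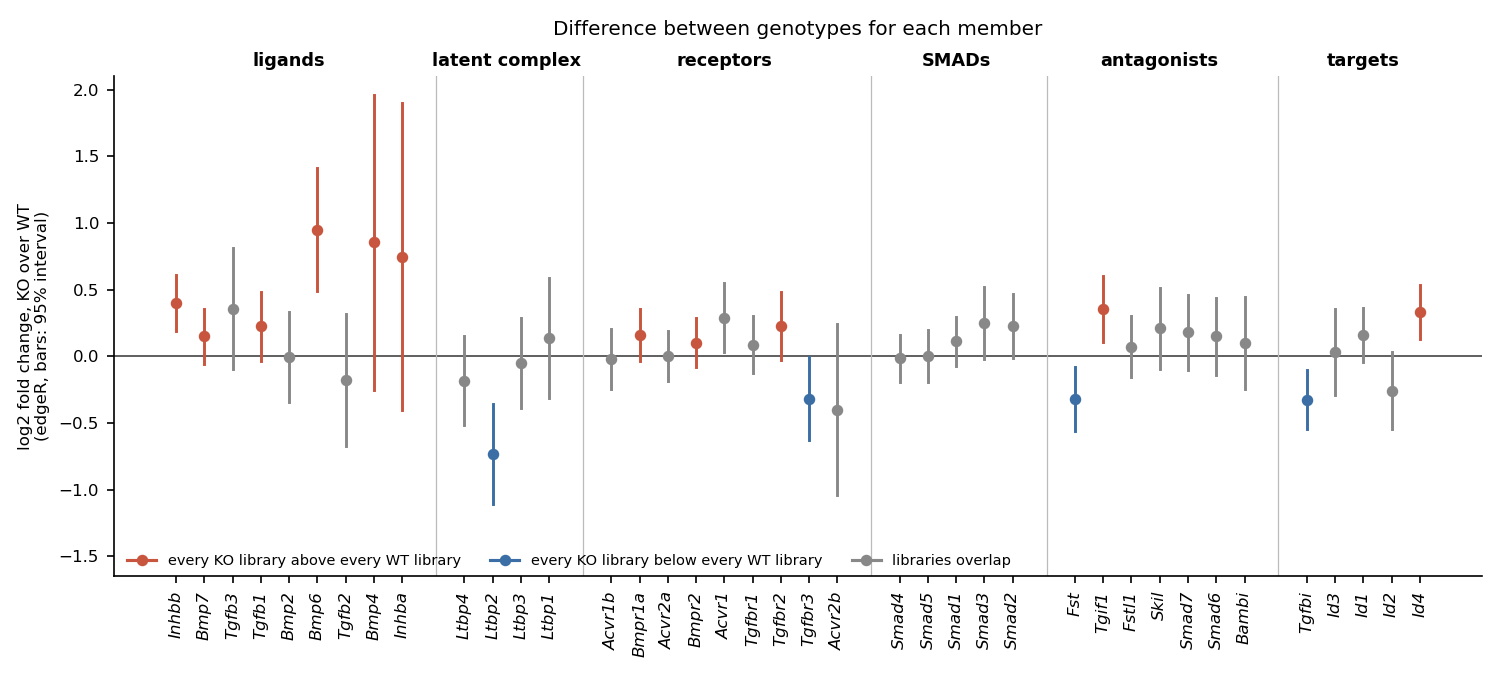
Log2 fold change of each of the 39 members, KO over WT, from edgeR (y axis) with its 95% interval (bars), by role and, within a role, from the highest to the lowest level per kilobase. Red marks members with every KO library above every WT library (11), blue the reverse (4) and grey those with overlap; Bmp6 at 0.95 and Ltbp2 at −0.73 lie farthest from 0 among well-counted members, and Bmp4 and Inhba have the widest intervals.

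The calls of single members changed with the tool and with single libraries. DESeq2, which called 2.52% of all genes, called Bmp6 (adjusted p = 0.00423), Inhbb (adjusted p = 0.00979), Ltbp2 (adjusted p = 0.00608) and Tgfbi (adjusted p = 0.0327), whereas limma-voom, which called 0.111%, called no member (smallest adjusted p = 0.158, 8 members at an unadjusted p below 0.05). Library size only (0.53% of genes called), upper-quartile factors (0.66%), filterByExpr (0.109%), at least 10 counts in every library (0.0919%) and protein-coding genes only (0.15%) called no member with edgeR. Without WT a, where 2.44% of genes were called, Bmp6 passed (adjusted p = 0.0335). Without KO b (0.941%), Bmp6 (adjusted p = 0.0239) and Ltbp2 (adjusted p = 0.0126) passed. Without WT b (0.579%), Tgfb3 passed (log2 fold change 0.71, adjusted p = 0.0467). No member passed without WT c (0.0235%), KO a (0.0469%) or KO c (0.14%), where the smallest adjusted p over the members was 0.368, 0.375 and 0.259.

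For the 3 members nearest to the threshold, the bases just before the annotated start are shown so that the genes can be read at their control regions. The sequences are from RefSeq (GRCm38.p6), on the strand of the gene, 5′ to 3′. Capitals mark CAGAC, the core of the SMAD-binding element, on either strand. The other motif searched, GGCGCC, found in BMP-responsive GC elements, has no match in them. The motifs do not overlap each other in letters. Bmp6 lies on the plus strand of chromosome 13 and the 250 bases are chr13:38345466-38345715. Inhbb lies on the minus strand of chromosome 1, with chr1:119422249-119422498. For Ltbp2, on the minus strand of chromosome 12, the 183 bases of the window that lie before the outermost annotated start are given, chr12:84876559-84876741.
Bmp6: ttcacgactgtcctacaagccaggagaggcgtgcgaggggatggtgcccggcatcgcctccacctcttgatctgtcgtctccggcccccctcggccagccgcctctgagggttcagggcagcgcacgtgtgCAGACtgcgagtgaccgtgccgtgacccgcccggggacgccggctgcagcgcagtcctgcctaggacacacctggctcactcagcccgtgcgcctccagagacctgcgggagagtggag
Inhbb: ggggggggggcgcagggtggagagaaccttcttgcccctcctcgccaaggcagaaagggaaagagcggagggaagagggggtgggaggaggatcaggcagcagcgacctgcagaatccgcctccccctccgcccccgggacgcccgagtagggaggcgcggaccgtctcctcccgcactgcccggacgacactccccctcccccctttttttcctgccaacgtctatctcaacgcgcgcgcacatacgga
Ltbp2: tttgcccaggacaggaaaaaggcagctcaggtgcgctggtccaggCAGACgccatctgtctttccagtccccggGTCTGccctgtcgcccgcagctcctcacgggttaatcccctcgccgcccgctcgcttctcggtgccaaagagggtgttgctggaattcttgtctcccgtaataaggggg

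The Bmp6 window held 1 match to CAGAC and the Ltbp2 window 2, one on each strand, and the Inhbb window held none. RefSeq windows matched 28 of the 39 members, some with several starts, 38 windows in all. CAGAC was found in 42.1% of these and in 42.2% of all 32851 RefSeq windows of 250 bases, both strands searched. GGCGCC was found in 23.7% of the members' windows (9 windows of 8 genes) and in 9.59% of all windows. Windows of the same gene are not independent. The GC content of the members' windows was not compared with that of all windows, so the shares do not show an enrichment. A match is only a run of letters, and binding was not measured.

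Levels were compared between genes as TMM-scaled CPM per kilobase of exon, which spanned from 347 for Tgfbi to 0.0354 for Inhba in WT libraries. Over all libraries, 7 members stood above 50 on this scale (Tgfbi, Id3, Id1, Ltbp4, Id2, Fst and Ltbp2), 18 between 10 and 50, 11 between 1 and 10, and 3 below 1 (Acvr2b, Bmp4 and Inhba). Summed per library, the 9 ligands reached 103 ± 5.86 in WT and 126 ± 9.54 in KO libraries (SD, n = 3 each), the 9 receptors 142 ± 4.38 and 149 ± 2.45, and the 5 SMADs 80.2 ± 1.92 and 83.3 ± 2.18. The 4 latent complex genes reached 215 ± 30.7 in WT and 177 ± 27.4 in KO libraries, and the 7 antagonists 147 ± 9.84 and 146 ± 9.004. These sums are descriptions without a test.

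**Figure D2:**
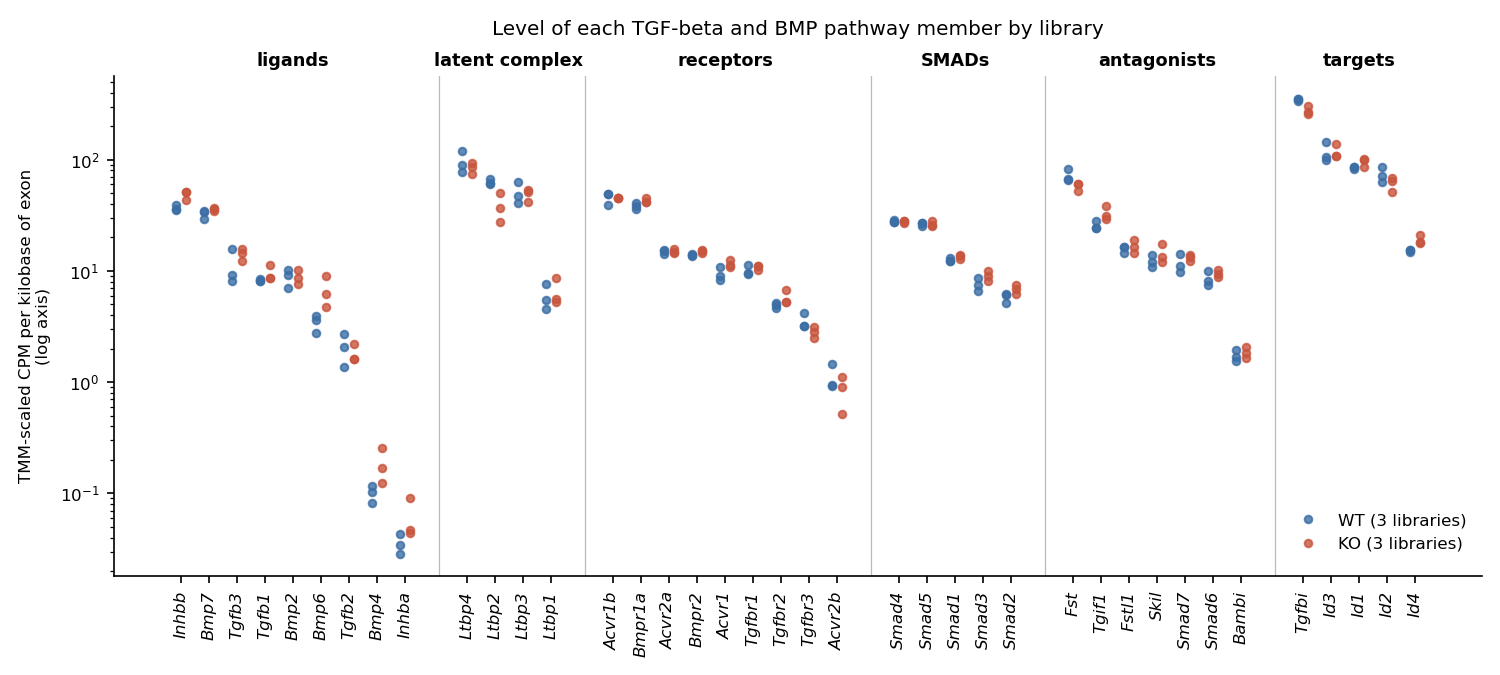
TMM-scaled CPM per kilobase of exon on a log axis for each of the 39 members, 1 point per library (blue WT, red KO, 3 libraries each), by role. Tgfbi, Id3, Id1 and Ltbp4 lie highest, the points of Smad4 and Smad5 nearly coincide, and Bmp4 and Inhba lie lowest; the largest gaps between colors among well-counted genes are those of Bmp6 and Ltbp2.

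Among the ligands, Inhbb and Bmp7 had the highest levels per kilobase. Inhbb (ENSMUSG00000037035, chromosome 1, 119415465 to 119422248, GRCm38), the βB chain of activin B, reached 36.8 ± 1.66 CPM per kilobase in WT and 48.5 ± 4.41 in KO libraries. WT libraries had 154, 151 and 165 CPM, whereas KO libraries had 218, 185 and 217 CPM. All 3 KO libraries lay above the highest WT library, with KO b nearest to it. This 1.32-fold difference gave a log2 fold change of 0.40 (standard error 0.10, 95% interval 0.19 to 0.61, adjusted p = 0.0925, edgeR), and the exact two-sided permutation test gave p = 0.1, the smallest that 3 against 3 libraries allow. Any gene whose genotypes do not overlap has this exact p. Here and below it therefore restates the non-overlap and is no second line of support.

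Bmp6 (ENSMUSG00000039004, chromosome 13, 38345716 to 38499728), a BMP ligand known from the bulge, had the largest estimate of all members. It stood at 15.4, 14.0 and 10.8 CPM in the WT libraries and at 24.1, 18.6 and 34.8 CPM in the KO libraries. The genotypes did not overlap, and the KO libraries were spread over a wider range than the WT libraries, with KO c highest. The means differed 1.93-fold, a log2 fold change of 0.95 (standard error 0.21, 95% interval 0.49 to 1.41, adjusted p = 0.0708, edgeR), and the exact permutation p was 0.1. It was 0.67 without KO c (adjusted p = 0.259) and 1.15 without KO b. The inner root sheath and hair shaft list, with sums of 170 to 203 CPM in WT libraries, reached 240.2, 199.6 and 236 CPM in the 3 KO libraries. It was lowest in KO b as Bmp6 was, but highest in KO a. Gata3, Hoxc13, Dlx3 and Msx2, rather than the keratin genes, made up most of these sums. The suprabasal list was also lowest in KO b among KO libraries (3077, 2889 and 2973 CPM). The part of these lists in the Bmp6 difference was not tested.

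The other BMP ligands were closer between genotypes. Bmp7, at 32.5 ± 2.88 CPM per kilobase in WT libraries, had 117 to 139 CPM in WT and 140.0 to 148 CPM in KO libraries, apart but by little (log2 fold change 0.15, 95% interval −0.05 to 0.35). Bmp2 had almost equal means, 31.5 CPM in WT and 31.4 CPM in KO libraries, with a log2 fold change interval of −0.34 to 0.33. Bmp4 had 4 to 12 counts per library, just over the floor, and so did Inhba, the βA chain of activin A. Bmp4 had 5, 4 and 6 counts in WT and 9, 6 and 12 in KO libraries, and Inhba 4, 6 and 5 and 7, 6 and 12. In both, KO b tied with 1 WT library in raw counts, and the genotypes were apart only after scaling. The log2 fold changes were 0.85 and 0.75, but the intervals ran from −0.25 to 1.96 and from −0.40 to 1.90, and a difference was not detectable at this depth.

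All 3 TGF-β ligands were detected. Tgfb1 stood at 40.6, 40.9 and 42.6 CPM in WT and 43.8, 43.8 and 57.4 CPM in KO libraries, without overlap but with only KO c clearly above the rest (log2 fold change 0.22, 95% interval −0.04 to 0.48). Tgfb3 stood at 31.1, 53.4 and 27.3 CPM in WT and 49.2, 41.2 and 52.8 CPM in KO libraries. WT b, at the top of all 6, made its genotypes overlap (log2 fold change 0.36, 95% interval −0.10 to 0.81, adjusted p = 0.576). Tgfb2, the ligand known to counter BMP signaling in the hair cycle, was the lowest of the 3 per kilobase (2.04 ± 0.660 in WT, 1.80 ± 0.334 in KO libraries), at 7.94 to 15.6 CPM in WT and 9.31 to 12.7 CPM in KO libraries (log2 fold change −0.18, 95% interval −0.68 to 0.31).

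The latent complex genes encode matrix proteins that hold TGF-β until it is released, except LTBP2, which is not known to bind latent TGF-β. Ltbp2 (ENSMUSG00000002020, chromosome 12, 84783212 to 84876532) had the lowest estimate of the members. It stood at 502, 552 and 497 CPM in the WT libraries and at 225, 406 and 302 CPM in the KO libraries. No KO library reached the lowest WT library, and KO a was lowest and KO b nearest to WT. Levels in KO were 0.602 times those in WT libraries (log2 fold change −0.73, standard error 0.17, 95% interval −1.10 to −0.36, adjusted p = 0.0843, edgeR), and the exact permutation p was 0.1. Without KO a it was −0.54 (adjusted p = 0.375), and without KO b it was −0.96. The fibroblast list, mostly Col1a1, Col1a2 and Thy1, summed to 264, 179 and 249 CPM in WT and to 77.3, 138 and 136 CPM in KO libraries. It was also lowest in KO a, where Col1a1, Col1a2 and Thy1 were lowest too and Dcn was highest. The bulge list summed to 52160, 39370 and 48950 CPM in WT and to 40090, 46580 and 41350 CPM in KO libraries. In it, Cd34 stood at 881, 806 and 872 CPM in WT and at 399, 625 and 526 CPM in KO libraries. Cd34, Lgr5, Krt15, Krt5 and Nfatc1 had the KO order of Ltbp2, and Krt14, Sox9, Lhx2, Tcf3 and Postn did not. The part of these genes in the Ltbp2 difference was not tested.

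Ltbp4, the highest member of this role at 95.6 ± 22.6 CPM per kilobase in WT and 84.2 ± 9.83 in KO libraries, overlapped between genotypes. Its WT libraries had 780.1, 498 and 575 CPM and its KO libraries 475, 600.3 and 557 CPM. WT a alone lay above all others, and without it the log2 fold change went from −0.18 (95% interval −0.52 to 0.15) to 0.03. Ltbp3 had the same order among WT libraries (576, 369 and 428 CPM) and overlapped with KO libraries (377 to 486 CPM). Ltbp1 was the lowest of the role per kilobase (5.91 ± 1.59 in WT, 6.50 ± 1.92 in KO libraries), with 48.8 to 81.9 CPM in WT and 55.7 to 93.1 CPM in KO libraries.

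**Figure D3:**
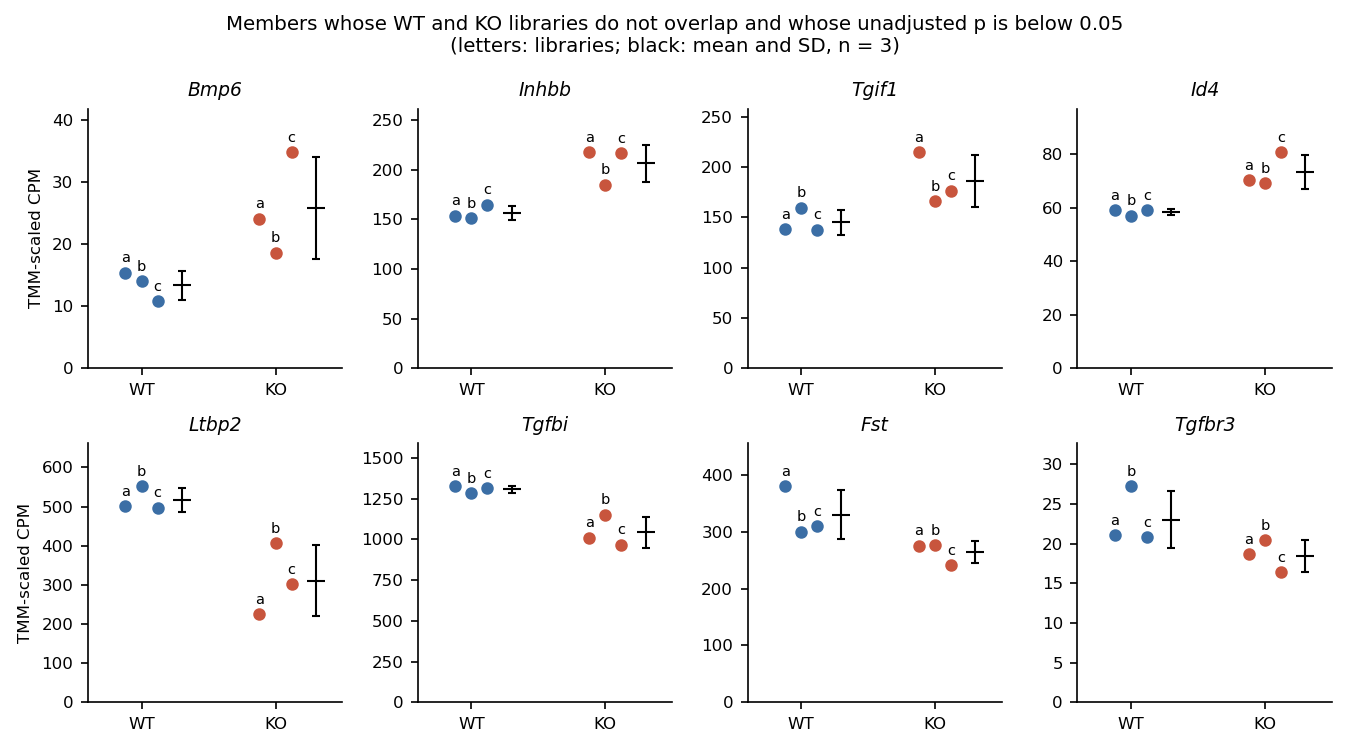
TMM-scaled CPM (y axis, from 0) in each of the 3 WT and 3 KO libraries for the 8 members whose genotypes do not overlap and whose unadjusted p is below 0.05, with library letters and, in black, mean ± SD. Bmp6, Inhbb, Tgif1 and Id4 are higher and Ltbp2, Tgfbi, Fst and Tgfbr3 lower in all KO libraries, and none of the 8 has an adjusted p below 0.05.

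Receptors of all 3 branches were present, and the lowest adjusted p among them was 0.359. Acvr1b, the type I activin receptor and highest of the role per kilobase (45.8 ± 5.65 in WT, 45.1 ± 0.332 in KO libraries), stood at 174, 218 and 215 CPM in WT and 199, 198 and 201 CPM in KO libraries. The KO libraries lay inside the WT range, with a log2 fold change near 0 (−0.02, standard error 0.10, 95% interval −0.25 to 0.20, adjusted p = 0.953). The BMP receptors Bmpr1a (227 to 258 CPM in WT, 264 to 285 CPM in KO libraries) and Bmpr2 (means of 251 and 269.8 CPM) were apart by small margins, with log2 fold changes of 0.16 and 0.10 and intervals that include 0. Tgfbr2, the TGF-β type II receptor, was also apart, at 37.8 to 42.3 CPM in WT and 42.9 to 54.8 CPM in KO libraries (0.23, 95% interval −0.03 to 0.48). Acvr1, a type I receptor of the BMP branch, had an unadjusted p of 0.0293 (log2 fold change 0.29, adjusted p = 0.359), but WT a at 52.9 CPM lay above KO c at 52.3 CPM.

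Tgfbr3, the co-receptor betaglycan (ENSMUSG00000029287, chromosome 5, 107106570 to 107289629), was the receptor with lower counts in every KO library. It stood at 21.1, 27.2 and 20.8 CPM in WT and at 18.7, 20.4 and 16.4 CPM in KO libraries. KO b at 20.4 CPM and WT c at 20.8 CPM were almost level. Its log2 fold change was −0.32 (standard error 0.14, 95% interval −0.63 to −0.01, adjusted p = 0.427, edgeR; exact permutation p = 0.1), and without WT b, the highest library, it was −0.18 (adjusted p = 0.772). Tgfbr1 and Acvr2a overlapped, with intervals of −0.13 to 0.30 and −0.18 to 0.19. Acvr2b, the lowest receptor per kilobase and at 2.04 to 5.77 CPM, had an interval of −1.04 to 0.24. Tgfbr2, Tgfbr3, Fstl1 and Smad5 share stretches of 100 to 399 bases with other annotated transcripts at 95% identity or more, and reads from these stretches may have been dropped.

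The SMADs were close between genotypes. Smad4, the shared partner and highest per kilobase (27.9 ± 0.570 in WT, 27.6 ± 0.642 in KO libraries), stood at 102, 106 and 103 CPM in WT and 99.7, 104 and 103 CPM in KO libraries. The genotypes overlapped (log2 fold change −0.02, standard error 0.08, 95% interval −0.19 to 0.16, adjusted p = 0.961). Smad5, a BMP SMAD, had means of 196 CPM in each genotype (95% interval −0.19 to 0.19), and Smad1 means of 78.2 and 84.6 CPM (−0.07 to 0.30). The TGF-β SMADs had estimates above 0, Smad3 with 42.0 and 49.9 CPM (0.25, 95% interval −0.02 to 0.52) and Smad2 with 51.1 and 59.7 CPM (0.23, −0.01 to 0.46). Both overlapped between genotypes, and no SMAD had an unadjusted p below 0.05.

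Among the antagonists, Fst and Tgif1 had non-overlapping genotypes, in opposite directions. Fst, which encodes follistatin, a secreted inhibitor of activins (ENSMUSG00000021765, chromosome 13, 114452262 to 114458730), was highest of the role per kilobase, 71.8 ± 9.46 in WT and 57.6 ± 4.31 in KO libraries. It stood at 379, 299.9 and 309 CPM in WT and at 275, 276 and 241 CPM in KO libraries. WT a was far above the rest, and the other 2 WT libraries lay closer to KO. At 0.802 times the WT level, its log2 fold change was −0.32 (standard error 0.11, 95% interval −0.56 to −0.08, adjusted p = 0.265, edgeR; exact permutation p = 0.1). Without WT a it was −0.20 (adjusted p = 0.385).

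Tgif1, a nuclear co-repressor of SMADs (ENSMUSG00000047407, chromosome 17, 70844205 to 70853546), stood at 138, 159 and 137 CPM in WT and at 215, 166 and 176 CPM in KO libraries. KO a was highest, and KO b lay just above WT b. The difference was 1.28-fold (log2 fold change 0.36, standard error 0.11, 95% interval 0.11 to 0.61, adjusted p = 0.206, edgeR; exact permutation p = 0.1). The co-repressor Skil was also highest in KO a (169 CPM), but its genotypes overlapped (log2 fold change 0.21, 95% interval −0.09 to 0.51). The inhibitory SMADs Smad6 and Smad7, which are themselves induced by BMP and TGF-β signaling, overlapped, with log2 fold changes of 0.15 and 0.18 and intervals that include 0. Bambi, a pseudoreceptor, was the lowest antagonist per kilobase (7.85 to 10.5 CPM over all libraries), and Fstl1, a secreted follistatin-like protein gene, had means of 77.2 and 81.2 CPM.

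The targets had the highest summed level of the roles (636 ± 40.0 CPM per kilobase in WT and 570.2 ± 52.5 in KO libraries), and their estimates had both signs. Tgfbi, a TGF-β-induced matrix protein gene (ENSMUSG00000035493, chromosome 13, 56609603 to 56639339), had the highest level of all members, 347 ± 5.99 CPM per kilobase in WT and 277 ± 25.4 in KO libraries. It stood at 1325, 1282 and 1315 CPM in WT and at 1010.1, 1151 and 968 CPM in KO libraries. The WT libraries were within a narrow range, above all KO libraries. The mean in KO was 0.798 times that in WT libraries (log2 fold change −0.33, standard error 0.10, 95% interval −0.55 to −0.11, adjusted p = 0.201, edgeR; exact permutation p = 0.1).

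The Id genes, inhibitors of basic helix-loop-helix factors and direct targets of BMP SMADs, differed in their estimates. Id4 (ENSMUSG00000021379, chromosome 13, 48261427 to 48264036) stood at 59.1, 56.9 and 59.0 CPM in WT and at 70.3, 69.1 and 80.8 CPM in KO libraries. All KO libraries were above the narrow WT range, at a log2 fold change of 0.33 (standard error 0.09, 95% interval 0.13 to 0.53, adjusted p = 0.153, edgeR; exact permutation p = 0.1). Id1, Id2 and Id3, which were 4 times or more as abundant per kilobase as Id4 in WT libraries, overlapped between genotypes. Their log2 fold changes were 0.16 (95% interval −0.04 to 0.36), −0.26 (−0.55 to 0.03) and 0.03 (−0.29 to 0.36).

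Beyond the members, 101 further genes of the pathways were listed by role, of which 94 were in the count table. Of these 94, 3 had an adjusted p below 0.05 with higher and 2 with lower counts in KO libraries, beside 0.673% of all tested genes. At an unadjusted p below 0.05 there were 29 of 94 (30.9%), 14 higher and 15 lower, beside 11.5% of all tested genes and 17% of those above 1 CPM. In 25 of 94 (26.6%) the genotypes did not overlap, 12 higher and 13 lower, beside 16.3% of all tested genes and 22.2% of those above 1 CPM. The median log2 fold change of the 94 was 0.01. The list of 17 further TGF-β targets held 2 of the 5 calls, Ctgf lower and Bhlhe40 higher, and 9 of its 17 genes (52.9%) had an unadjusted p below 0.05, 5 higher and 4 lower, beside the same 11.5% and 17%. The 17 SMADs and SMAD regulators held another 2, Pmepa1 and Tgif2, both higher, and the 12 latency and activation genes held Mmp2, lower. The further ligands (13), receptors and co-receptors (11), secreted antagonists (14) and BMP targets (10) held none. These lists were chosen with earlier results of these data known, and the paper had reported Ctgf from these same libraries. The shares above therefore describe the lists and do not test for enrichment.

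Ctgf, also named Ccn2, which encodes a matricellular protein induced by TGF-β and by YAP/TAZ, stood at 797, 582 and 795 CPM in WT and at 238, 280.4 and 218 CPM in KO libraries. It fell by 1.56 on the log2 scale (standard error 0.14, adjusted p = 0.00054, edgeR), to 0.339 times the WT level. Without WT c its adjusted p was 0.0926, and with limma-voom it was 0.00478. Mmp2, a gelatinase that can activate latent TGF-β, stood at 219.7, 195 and 201 CPM in WT and 132, 159 and 138 CPM in KO libraries (log2 fold change −0.53 with a standard error of 0.10, adjusted p = 0.0431).

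Pmepa1 and Tgif2, which encode inhibitors of SMAD signaling, rose. Pmepa1, a TGF-β-induced membrane protein gene that sequesters SMADs, stood at 51.7, 35.5 and 51.9 CPM in WT and at 114, 79.5 and 87.7 CPM in KO libraries (log2 fold change 1.01 with a standard error of 0.16, adjusted p = 0.0222). Tgif2, the paralog of Tgif1, stood at 8.95, 7.97 and 9.83 CPM in WT and at 21.3, 12.6 and 19.3 CPM in KO libraries (log2 fold change 0.99 with a standard error of 0.19, adjusted p = 0.0447). A transcribed pseudogene, Tgif2-ps2, matches it at 99.6% identity over 711 bases, and its counts are uncertain. Bhlhe40, a transcription factor gene, stood at 130.3, 156 and 135 CPM in WT and 245, 189 and 209 CPM in KO libraries (log2 fold change 0.61 with a standard error of 0.11, adjusted p = 0.0416).

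In all 5 genes the genotypes did not overlap, which their choice by adjusted p makes likely. The calls of Mmp2, Pmepa1, Tgif2 and Bhlhe40 were less firm than that of Ctgf. With limma-voom, their adjusted p values were 0.105, 0.0903, 0.150 and 0.112. All 4 also missed the threshold without WT c, without KO a and without KO c, and Tgif2 missed it without WT b (adjusted p between 0.0681 and 0.368 in these fits), while Ctgf passed in 13 of 14 fits.

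**Figure D4:**
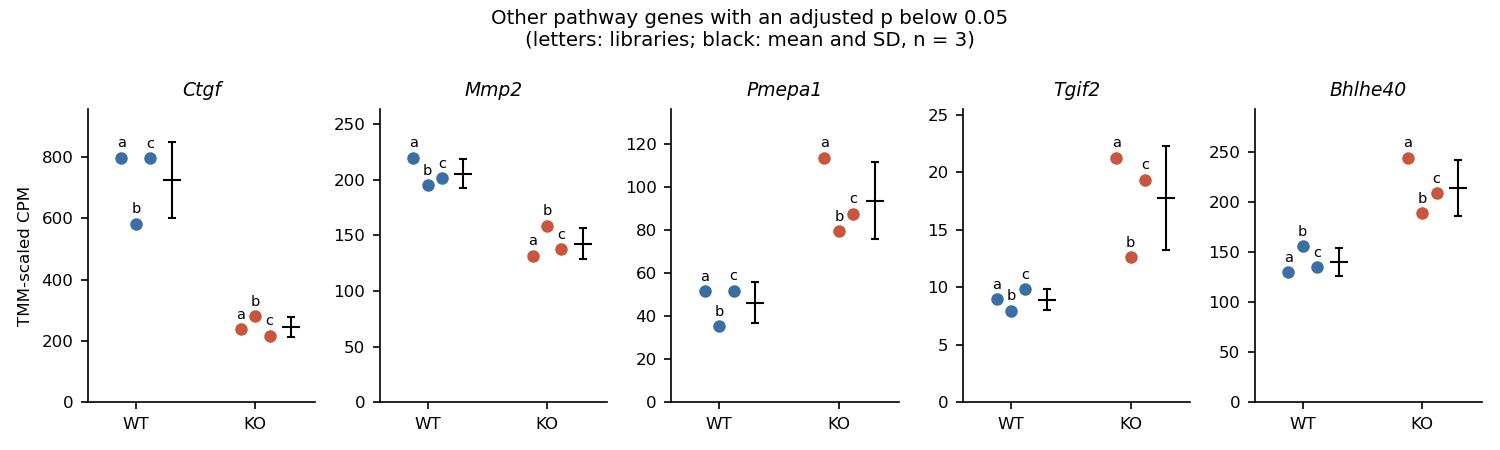
TMM-scaled CPM (y axis, from 0) in each library for the 5 further pathway genes with an adjusted p below 0.05, with library letters and, in black, mean ± SD (n = 3). Ctgf and Mmp2 are lower and Pmepa1, Tgif2 and Bhlhe40 higher in all KO libraries, and KO b is the KO library nearest to WT in all 5.

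In the lists without a call, the gene with the smallest p was in each case apart between genotypes, which its choice by p makes likely. Gdf10, a TGF-β family ligand, stood at 9.41, 9.85 and 7.63 CPM in WT and 4.25, 5.21 and 6.05 CPM in KO libraries (log2 fold change −0.80, adjusted p = 0.0861). Rgma, a BMP co-receptor, stood at 67.3, 85.8 and 60.4 CPM in WT and 114, 89.7 and 127 CPM in KO libraries (0.63, adjusted p = 0.0861). Nbl1, a secreted BMP antagonist, stood at 210.4, 355 and 211 CPM in WT, with WT b far above the others, and 141, 179 and 139.5 CPM in KO libraries (−0.75, adjusted p = 0.101, and −0.46 without WT b). Runx2, a transcription factor induced by BMP, stood at 1.19 to 2.43 CPM in WT and 3.05 to 4.40 CPM in KO libraries (0.98, adjusted p = 0.171).

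Spread among replicates of a genotype differed widely between members. The median coefficient of variation was 12.3% in WT and 10.9% in KO libraries. In WT it was highest for Tgfb3 (37.8%), Tgfb2 (32.3%), Acvr2b (27.5%) and Ltbp1 (26.9%), all with WT b at the top, and lowest for Tgfbi (1.73%), Smad4 (2.05%), Bmpr2 (2.06%) and Id4 (2.14%). Ltbp4, Id3, Ltbp3, Smad7 and Smad6 were instead led by WT a, which stood at 1.25 to 1.36 times the next WT library. No library was at the top or bottom for all members. Among KO libraries, KO b was lowest for 18 of 39 members and highest for 15.

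**Figure D5:**
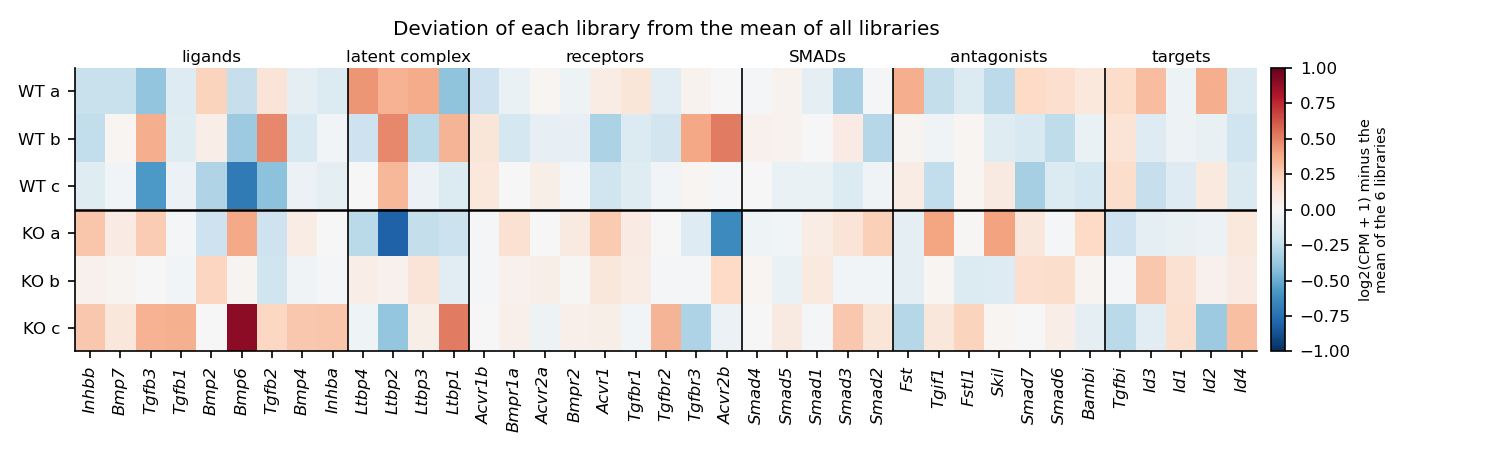
Deviation of each library from the mean of all 6, in log2(CPM + 1), for the 39 members by role (red above, blue below; the line divides WT from KO). Bmp6 and Ltbp2 separate the genotypes most clearly, and Smad4 and Smad5 are almost without color. Among the WT libraries, Tgfb2, Tgfb3, Acvr2b and Ltbp1 are highest in WT b.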

How the data were processed

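Sorted GFP-positive keratinocytes of 3 WT and 3 KO mice were sequenced by the authors with strand-specific, polyadenylated RNA libraries and single reads of 65 bases. Reads were aligned with TopHat 2.1.0 (Bowtie 1.1) to mouse build 38 with Ensembl 77 gene models, and uniquely mapped reads were counted per gene with strand taken into account. The deposited values are these raw counts, without normalization or pooling. Dropping reads with several matches lowers the counts of genes with near-identical copies, which were searched with blastn 2.17.0 (95% identity over 100 bases).

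Differential expression was tested with edgeR 4.0.16 (R 4.3.3) over all genes counted in any library (TMM, glmQLFit, glmQLFTest, genotype only), and adjusted p values are from this fit unless another is named. CPM were TMM-scaled. Levels per kilobase used the union of exons in GENCODE M21. limma 3.58.1 (voom, the tool of the study), DESeq2 1.42.0, other scalings and filters and omission of each library were alternatives. Code was tested on simulated counts. Single genes were also compared by exact permutation of log2(CPM + 1), where non-overlap of 3 against 3 libraries always gives p = 0.1.

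The members and lists were chosen with earlier results of these data known. Library values are given for members whose genotypes did not overlap at an unadjusted p below 0.05, the highest member of each role, further pathway genes that passed, and the smallest p of each list. Other values were chosen after they were seen.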

Additional observations from a re-analysis of the deposited data

How the results depend on the processing

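No member passed with library size only, upper-quartile factors, limma-voom, filterByExpr, at least 10 counts in every library or protein-coding genes only, with 37 members tested under the 2 filters on counts. DESeq2 called 2 members higher and 2 lower, and an adjusted p below 0.1 gave 2 higher and 1 lower. With 1 library left out, 0 to 1 members were called higher and 0 to 1 lower. The median log2 fold change of the members was 0.10 to 0.12 in the fits with all libraries and 0.10 to 0.15 with 1 left out.

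Of the further pathway genes, 3 higher and 2 lower calls became 0 and 1 with limma-voom, filterByExpr, the minimum of 10 counts or protein-coding genes only, and 6 and 5 with DESeq2. With 1 library left out they ranged from 0 to 6 higher and from 0 to 5 lower. With 1 library left out, the log2 fold change ranged from −0.316 to 0.0269 for Ltbp4 (above 0 without WT a), from −0.115 to 0.0358 for Acvr1b (above 0 without WT b and, at 0.0234, without WT c), and from −0.0233 to 0.00291 for Smad4 (above 0 without KO a and, at 0.000586, without WT b). Over all fits, 28 of 39 members kept the sign of their estimate. Itga3 was lower in every fit, but its adjusted p was 0.130 without WT c and 0.0934 without KO a. The cause of these shifts was not tested.

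No paired analysis was possible because no pairing of WT and KO mice is given, and the numbers in the column names match no sample title. Nothing in the labels ties a library to a litter or day, so effects of these cannot be told apart from genotype. The p-values weigh the difference between genotypes against the spread within them, for these 6 libraries only. With the longest transcript in place of all exons, the level per kilobase in WT libraries was 435 for Tgfbi and 113 for Fst, and it was the same for Inhbb and Acvr1b. Bmp4 and Inhba, at 4 to 12 counts, had the lowest counts. The floor covers counting error only, since reads carry no molecular identifiers.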
